A study of Mus musculus with 20 samples.

Results

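The SLC25 family of mitochondrial carriers was examined in mouse erythroblasts as 43 of the 19505 genes that the array names. The members were the genes whose probe set carries 1 symbol of the form Slc25a and a number, apart from the mitochondrial iron carriers Slc25a28 and Slc25a37 and the glycine carrier Slc25a38, which stood in a comparison list. Each member had 1 probe set. RNA was measured on 20 Clariom S arrays, 2 in each of 10 groups, all of C57BL/6 background.

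In the cultures, lineage-depleted marrow progenitors from healthy female wild-type mice were grown with erythropoietin and collected at points called D2 and D1, which the labels do not define (D2 is taken here as the later one). At each point, D2-IL6 and D1-IL6 cells had grown throughout with 100 ng/mL recombinant mouse interleukin 6 (IL-6), and D2-Control and D1-Control cells without it. In vivo, erythroblasts came from DKO mice, which lack both mDia1 and miR-146a, or from double wild-type DWT mice, all aged 1 year. Stage I was labelled as proerythroblasts. Stage II+III held basophilic with polychromatic cells, and stage IV the orthochromatic ones, the last stage before the nucleus is lost. The DKO arrays were all of females and the DWT pair at each stage was 1 male and 1 female, so that genotype and sex partly overlap. The labels do not say how the stages were isolated, give no cell type limit for the knockouts, and tie no DKO array to a mouse. The series counts 2 mice a genotype and 2 wild-type donors of the cultures, so p-values rest on the spread between pairs of arrays.

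SLC25 proteins are encoded in the nucleus, imported into mitochondria and inserted mostly in the inner membrane, where they exchange metabolites, nucleotides and cofactors between the cytosol and the matrix. Members differ in cargo: ADP and ATP, phosphate, citrate, amino acids, acylcarnitines, coenzyme A, NAD+ or glutathione. Erythroblasts make haem partly inside mitochondria and lose these organelles late in maturation, so carriers for haem building blocks and for redox cofactors are of interest in them.

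Values are log2 signals. An array's background level was taken as the 95th percentile of its 23 background probe sets and was 7.25 to 7.74, and a lower signal is called near background. Signals of different probe sets are not amounts of RNA that can be set against each other, so each member was compared with itself. The share of named probe sets above background was 34.9% to 43.0% an array. Arrays of 1 group correlated at 0.97 or more over named probe sets, except the DKO-I pair at 0.903. DKO-I replicate 2 stood apart: its mean over the 43 members was 7.77, against 8.23 to 8.74 in the other 19 arrays. Diaph1, the gene of mDia1, had 6.87 to 7.59 in the 6 DKO arrays, against 9.29 to 11.49 in the 6 DWT arrays, and miR-146a was not analysed here. Marker lists set a limit on the in vivo labels. The mean of 7 erythroid genes was 9.45 to 10.16 in DKO-I, against 12.75 to 12.91 in DWT-I. It was 12.11 to 13.10 in DKO-II+III, against 13.93 to 14.51 in DWT-II+III, and 15.26 to 15.29 in DKO-IV, against 15.24 to 15.56 in DWT-IV. The mean of 11 neutrophil genes was 15.38 to 16.95 in DKO-I, against 16.16 to 16.37 in DWT-I. It was 15.38 to 15.41 in DKO-II+III, against 11.30 to 12.99 in DWT-II+III, and 11.99 to 12.49 in DKO-IV, against 7.70 to 10.06 in DWT-IV. In the cultures this neutrophil mean was 5.78 to 8.33. Arrays labelled proerythroblasts thus carried strong neutrophil signal in both genotypes. In bulk RNA, fewer cells of a type and less RNA per cell cannot be told apart.

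Promoter windows, 250 bases before to 50 after the annotated start, were available from RefSeq for 34 of the 43 members. Shown are those of a pair of members that were higher at D2 and a pair that were lower at D2 in the cultures described next. Capitals mark matches, on either strand, to a GATA motif with the letters AGATAA, an E-box spelled CACGTG, an Sp1 box spelled GGGCGG, an ETS motif spelled CCGGAAG or a FOXO motif spelled TGTTTAC. No 2 of these matches overlap in the windows shown.

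Slc25a39, the mitochondrial glutathione carrier, higher at D2 (GRCm38.p6, chr11:102407468-102407767, minus strand): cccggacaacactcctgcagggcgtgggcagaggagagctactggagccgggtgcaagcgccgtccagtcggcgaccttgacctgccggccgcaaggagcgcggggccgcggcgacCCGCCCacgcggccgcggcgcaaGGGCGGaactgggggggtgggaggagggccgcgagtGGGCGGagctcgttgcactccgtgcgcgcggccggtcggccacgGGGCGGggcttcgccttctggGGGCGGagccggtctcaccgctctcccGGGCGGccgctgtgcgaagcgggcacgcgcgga
Slc25a36, a pyrimidine nucleotide carrier, higher at D2 (GRCm38.p6, chr9:97110992-97111291, minus strand): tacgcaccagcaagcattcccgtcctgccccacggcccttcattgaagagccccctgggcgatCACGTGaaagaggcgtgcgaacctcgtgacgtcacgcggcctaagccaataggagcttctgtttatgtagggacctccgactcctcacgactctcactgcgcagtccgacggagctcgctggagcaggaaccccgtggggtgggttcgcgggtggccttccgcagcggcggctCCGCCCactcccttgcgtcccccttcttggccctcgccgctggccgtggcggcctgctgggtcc
Slc25a4, an ADP/ATP carrier, lower at D2 (GRCm38.p6, chr8:46211013-46211312, minus strand): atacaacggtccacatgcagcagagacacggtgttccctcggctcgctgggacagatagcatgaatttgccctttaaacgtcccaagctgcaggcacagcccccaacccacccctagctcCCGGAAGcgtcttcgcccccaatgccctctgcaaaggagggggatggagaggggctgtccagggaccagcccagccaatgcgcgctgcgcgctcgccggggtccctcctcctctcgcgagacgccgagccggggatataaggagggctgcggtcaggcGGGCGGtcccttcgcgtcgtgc
Slc25a5, a second ADP/ATP carrier gene, lower at D2 (GRCm38.p6, chrX:36795347-36795646, plus strand): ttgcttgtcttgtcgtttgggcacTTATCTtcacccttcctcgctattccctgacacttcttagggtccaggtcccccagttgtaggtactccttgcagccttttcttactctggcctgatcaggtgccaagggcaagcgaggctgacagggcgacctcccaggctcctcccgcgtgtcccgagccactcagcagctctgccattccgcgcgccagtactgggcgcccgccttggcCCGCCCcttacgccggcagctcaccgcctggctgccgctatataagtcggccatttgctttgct

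The Slc25a39 window held 6 Sp1 boxes and 45 CpG dinucleotides. The Slc25a36 window held 1 Sp1 box and 1 E-box, the Slc25a4 window 1 Sp1 box and 1 ETS motif, and the Slc25a5 window 1 Sp1 box and 1 GATA motif. Over the 34 member windows, 82.4% held an Sp1 box, against 48.2% of the windows of 15691 genes with a probe set. The E-box stood in 17.6% of member windows, against 8.18% of all. The ETS motif stood in 17.6%, against 12.2%, and the GATA motif in 5.88%, against 9.90%. None of the 34 held the FOXO letters, which 2.98% of all windows held. The median member window had 16.5 CpG dinucleotides, against 14.0. Members with an Sp1 box were thus among both the higher and the lower, and these letter matches are a description of the windows.

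Detection divided the family. Of the 43 members, 10 were above background in all 20 arrays, 18 in some and 15 in none. The 10 were Slc25a1, Slc25a3, Slc25a4, Slc25a5, Slc25a10, Slc25a11, Slc25a16, Slc25a39, Slc25a46 and Slc25a51. They include the citrate carrier Slc25a1, the phosphate carrier Slc25a3, the oxoglutarate-malate carrier Slc25a11, the NAD+ carrier Slc25a51 and Slc25a46, an outer membrane protein of mitochondrial shape control. The probe sets with the highest mean signal were those of Slc25a3 (15.58), Slc25a51 (15.29), Slc25a5 (14.34), Slc25a11 (13.43) and Slc25a39 (13.39). Those of Slc25a48 (4.12), Slc25a34 (4.89) and Slc25a14 (4.98) had the lowest and were near background throughout. Of the mitochondrial aspartate-glutamate carriers, Slc25a12 was above background in 19 arrays and Slc25a13 in 0. The glutamate carrier Slc25a22 was also near background in every array, so the differences of Slc25a13 and Slc25a22 are not read as changes in level. Slc25a31, the testis ADP/ATP carrier, was likewise below that level in all arrays. Whether probes of Slc25a4, Slc25a5 and Slc25a31 cross-react was not tested.

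Most calls of members came from the cultures. From the fit of the 8 cultured arrays, 7 members were higher and 12 lower in D2-Control than in D1-Control at an adjusted p under 0.05, where 43.2% of all 19572 named probe sets passed (19.7% higher and 23.5% lower). The share of members that passed was therefore close to that of the array. The median log2 fold change was -0.27 over the members and 0.165 over all named probe sets. With IL-6 in both groups, 8 members were higher and 15 lower in D2-IL6 than in D1-IL6, where 33.2% of named probe sets passed (13.0% higher and 20.2% lower). The medians were -0.337 over the members and 0.093 over all. The 2 comparisons share no array, and 18 members passed in both, which is 78.3% of the IL-6 list and 94.7% of the control list. Over all named probe sets 5469 passed in both, or 84.2% and 64.6% of the lists. The comparisons may share donors, since the cultures came from 2 donors and no label ties a culture array to a donor. The fit held no donor term, and both comparisons use its error estimate. The overlap is therefore not read as independent evidence. In the IL-6 cultures 4 of the 23 that passed were near background in both groups (Slc25a18, Slc25a25, Slc25a31 and Slc25a32).

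**Figure D1:**
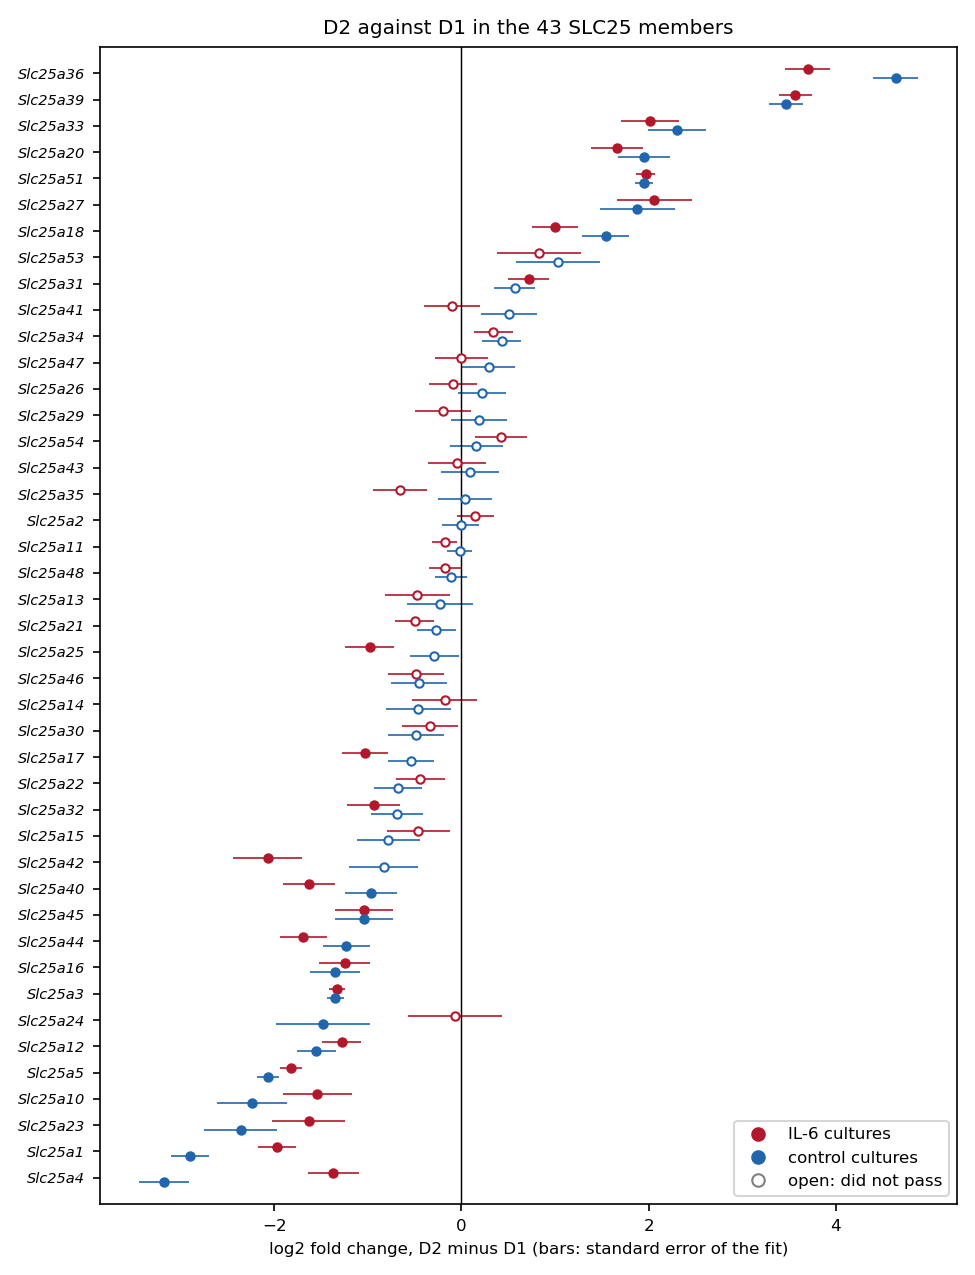
Log2 fold change, D2 minus D1, of each of the 43 members in IL-6 cultures (red) and control cultures (blue), with standard errors, filled where the adjusted p was under 0.05. Slc25a36 and Slc25a39 lie farthest to the right and Slc25a4 and Slc25a1 farthest to the left in control cultures, and the Slc25a4 change was -1.37 with IL-6 and -3.18 without.

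Of the 2 glutathione carriers, Slc25a39 rose and its relative Slc25a40 fell at D2. Slc25a39 had 15.95 and 15.80 in D2-Control, against 12.59 and 12.22 in D1-Control, a log2 fold change of 3.47 ± 0.18 (SE, adjusted p = 2.26e-07) or 11.1-fold. It had 15.75 and 15.81 in D2-IL6, against 12.46 and 11.96 in D1-IL6 (3.57 ± 0.18, adjusted p = 2.35e-07). All 4 D2 arrays lay above all 4 D1 arrays. Slc25a40 had 8.31 and 8.13 in D2-Control, against 9.22 and 9.15 in D1-Control (-0.97 ± 0.28, adjusted p = 0.0187), and 7.78 and 7.27 in D2-IL6, against 9.19 and 9.11 in D1-IL6 (-1.63 ± 0.28, adjusted p = 0.00119). The Slc25a40 call in control cultures ended under quantile normalization (-0.23, adjusted p = 0.572) and without D1-Control replicate 1, D1-Control replicate 2 or D2-Control replicate 2 (adjusted p of 0.0949, 0.0764 and 0.0698). Of 12 measured genes of glutathione synthesis and use, 7 rose and 1 fell in D2-Control relative to D1-Control, with a median of 0.65, and the same counts held in the IL-6 cultures. They include Gss, glutathione synthetase (log2 fold change 4.61), Slc7a11, a subunit of the cystine importer (3.19), Glrx, a glutaredoxin (2.27), and Txnrd2, the mitochondrial thioredoxin reductase (1.97). Gsr, glutathione reductase, fell by 0.74 in D2-Control relative to D1-Control. The gene that fell in D2-IL6 relative to D1-IL6 was instead Txnrd1 (-0.72). Over all named probe sets, 19.7% rose and 23.5% fell in control cultures, and 13.0% rose and 20.2% fell with IL-6.

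Of 8 nucleotide and cofactor carriers, 3 rose and 1 fell in D2-Control relative to D1-Control, and 3 rose and 4 fell in D2-IL6 relative to D1-IL6. Over all named probe sets, 19.7% rose and 23.5% fell in control cultures, and 13.0% rose and 20.2% fell with IL-6. Counts of so few carriers are not read as results about a class. The falls with IL-6 include Slc25a32, near background in both groups. The 3 carriers that rose were Slc25a36, Slc25a33 and Slc25a51, which carry pyrimidine nucleotides or NAD+. Slc25a36 had 13.58 and 13.68 in D2-Control, against 8.89 and 9.10 in D1-Control (4.64 ± 0.24, adjusted p = 1.87e-07, 24.9-fold). It had 13.47 and 12.95 in D2-IL6, against 9.51 and 9.51 in D1-IL6 (3.70 ± 0.24, adjusted p = 1.03e-06). Its relative Slc25a33 was above background in 4 of the 20 arrays, which were the 4 D2 arrays: 8.89 and 8.19 in D2-Control, against 6.40 and 6.08 in D1-Control, a log2 fold change of 2.30 that is at least 0.93 when D1-Control is set to the background level. The NAD+ carrier Slc25a51 had 16.94 and 16.88 in D2-Control, against 15.06 and 14.85 in D1-Control (1.95 ± 0.10, adjusted p = 2.21e-07), and differed by 1.97 ± 0.10 in the IL-6 cultures. These 3 carriers separated D2 from D1 arrays without overlap under either medium. Slc25a16, which is linked to coenzyme A supply, fell by 1.35 in D2-Control relative to D1-Control and by 1.25 in D2-IL6 relative to D1-IL6. Slc25a42, a coenzyme A carrier, had 6.66 and 7.47 in D2-IL6, against 9.29 and 8.97 in D1-IL6 (-2.07 ± 0.37, adjusted p = 0.00154, bound -1.47), and 8.07 and 8.75 in D2-Control, against 8.95 and 9.52 in D1-Control, which did not pass.

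The ADP/ATP and phosphate carriers supply oxidative phosphorylation. Of 3 ADP/ATP carriers 2 fell and 0 rose in D2-Control, and of 5 phosphate and ATP-Mg/phosphate carriers 3 fell and 0 rose. Over all named probe sets 19.7% rose and 23.5% fell, and such small counts are not read as a trait of either class. Slc25a4 had 8.28 and 8.99 in D2-Control, against 11.74 and 11.90 in D1-Control (-3.18 ± 0.27, adjusted p = 5.67e-06). It had 10.64 and 10.69 in D2-IL6, against 12.02 and 12.04 in D1-IL6 (-1.37 ± 0.27, adjusted p = 0.00253). Slc25a4 thus fell in both media. Slc25a5 had 13.20 and 13.12 in D2-Control, against 15.18 and 15.28 in D1-Control (-2.07 ± 0.12, adjusted p = 5e-07), and fell by 1.82 in D2-IL6 relative to D1-IL6. Slc25a3 had 15.11 and 15.12 in D2-Control, against 16.44 and 16.50 in D1-Control (-1.35 ± 0.09, adjusted p = 9.04e-07), and fell by 1.33 in D2-IL6. Each of these 3 probe sets stayed above background at D2. The calcium-regulated ATP-Mg/phosphate carriers Slc25a23 and Slc25a24 fell by 2.36 (bound -0.49) and 1.48 (bound -0.30) in D2-Control, where both were near background. The Slc25a24 call (adjusted p = 0.0352) ended under quantile normalization (0.0832), in a fit of all 20 arrays (0.0781), and without D1-Control replicate 1, D1-Control replicate 2 or D2-Control replicate 1 (0.157, 0.0822 and 0.248, the last with a log2 fold change of -0.54).

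**Figure D2:**
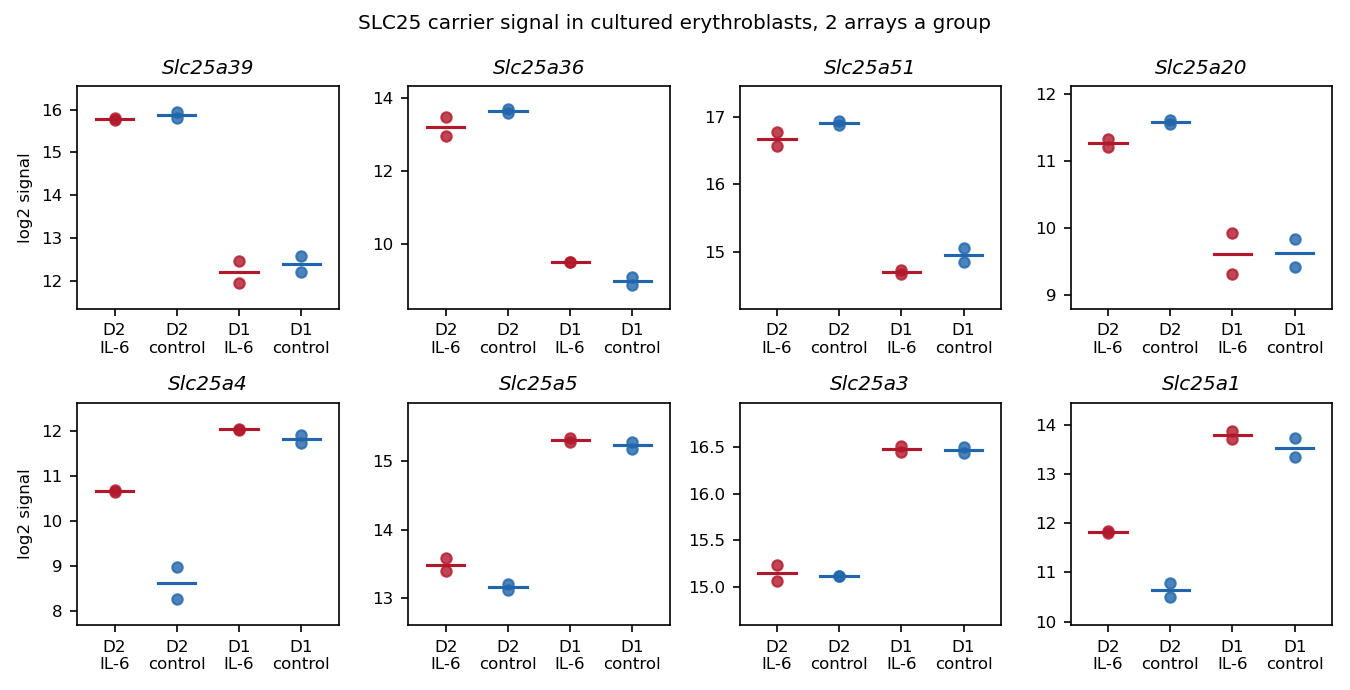
Log2 signal of 8 members in the cultured arrays, 2 arrays a group with a bar at their mean, IL-6 cultures in red and control cultures in blue. Slc25a39, Slc25a36, Slc25a51 and Slc25a20 lie higher at D2 and Slc25a4, Slc25a5, Slc25a3 and Slc25a1 lower, and the D2-IL6 points of Slc25a4 (10.64 and 10.69) lie between D2-Control (8.28 and 8.99) and both D1 groups.

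Of 3 citrate, dicarboxylate and oxodicarboxylate carriers, 2 fell and 0 rose in D2-Control. Of 5 carriers of the aspartate, glutamate and malate shuttle 1 rose and 1 fell, and likewise of 5 other amino acid and carnitine carriers. With 19.7% of named probe sets higher and 23.5% lower, these counts are not read as results about a class. Slc25a1, which exports citrate, had 10.78 and 10.50 in D2-Control, against 13.35 and 13.72 in D1-Control (-2.90 ± 0.20, adjusted p = 1.28e-06, 7.47-fold lower). It had 11.84 and 11.79 in D2-IL6, against 13.70 and 13.88 in D1-IL6 (-1.97 ± 0.20, adjusted p = 2.63e-05). The dicarboxylate carrier Slc25a10 had 9.62 and 8.68 in D2-Control, against 11.41 and 11.37 in D1-Control (-2.24 ± 0.37, adjusted p = 0.000698). The aspartate-glutamate carrier Slc25a12 had 10.16 and 10.22 in D2-Control, against 11.70 and 11.78 in D1-Control (-1.55 ± 0.21, adjusted p = 0.000184, 0.21 in a fit of all 20 arrays). Slc25a44, a branched-chain amino acid carrier, fell by 1.23 in D2-Control and by 1.69 in D2-IL6. The control call ended under quantile normalization (-0.42, adjusted p = 0.209), and in the fit of all 20 arrays both ended (0.14 in control and 0.0642 in IL-6 cultures). Slc25a20, the carnitine-acylcarnitine carrier of fatty acid oxidation, had 11.61 and 11.56 in D2-Control, against 9.84 and 9.42 in D1-Control (1.95 ± 0.28, adjusted p = 0.000227). It had 11.21 and 11.33 in D2-IL6, against 9.92 and 9.31 in D1-IL6 (1.66 ± 0.28, adjusted p = 0.000904, 0.055 in the fit of all 20 arrays). The oxoglutarate-malate carrier Slc25a11 had 13.62 and 13.60 in D2-Control, against 13.66 and 13.60 in D1-Control, and did not pass.

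Several other members passed in culture. Slc25a17, a peroxisomal carrier of cofactors, had 10.16 and 10.19 in D2-IL6, against 11.23 and 11.18 in D1-IL6 (-1.03 ± 0.25, adjusted p = 0.00962). That call ended under quantile normalization (-0.53, adjusted p = 0.138), in the fit of all 20 arrays (0.377) and without D1-IL6 replicate 1 (0.066) or D1-IL6 replicate 2 (0.0563). Slc25a27, an uncoupling protein relative, had 9.11 and 10.25 in D2-Control, against 7.66 and 7.94 in D1-Control (1.88 ± 0.40, adjusted p = 0.00352), and rose by 2.06 (bound 1.52) in D2-IL6. The glutamate carrier Slc25a18 had 7.61 and 7.69 in D2-Control, against 5.96 and 6.26 in D1-Control, with a bound of 0.04. Slc25a45 had a log2 fold change of -1.04 in both media (adjusted p = 0.0268 in IL-6 and 0.0217 in control cultures), with a bound of -0.40 in IL-6 and -0.31 in control cultures because D2 arrays were near background. Both calls ended under quantile normalization (0.115 in IL-6 and 0.0628 in control cultures) and in the fit of all 20 arrays (0.0863 and 0.0665). Its control call ended without D1-Control replicate 1 (0.153) or D2-Control replicate 2 (0.122), and its IL-6 call without D1-IL6 replicate 1 (0.194), D2-IL6 replicate 1 (0.0862) or D2-IL6 replicate 2 (0.0627). Beside the D2 changes, the mean of 11 monocyte and macrophage genes was 7.40 to 7.51 in D2-Control, against 10.33 to 10.89 in D1-Control, and the mean of 7 stem and progenitor genes was 5.80 to 5.94, against 7.81 to 7.90. The erythroid mean was 15.00 to 15.06 in D2-Control, against 14.57 to 14.59 in D1-Control. In the IL-6 cultures the monocyte and macrophage mean was 11.30 to 11.36 in D2-IL6, against 10.91 to 11.14 in D1-IL6. The mean of 7 granulocyte progenitor genes was 8.64 to 8.87 in D2-IL6, against 11.39 to 11.55 in D1-IL6, and 7.10 to 7.22 in D2-Control, against 9.88 to 10.64 in D1-Control. That of 7 mast cell and basophil genes was 6.94 to 7.16 in D2-IL6, against 9.25 to 10.05 in D1-IL6, and 7.29 to 7.76 in D2-Control, against 9.59 to 10.16 in D1-Control. The part of these cells in the carrier changes was not tested.

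Other gene lists linked to mitochondria gave a background for the direction of these changes. Over all named probe sets, 19.7% rose and 23.5% fell in D2-Control relative to D1-Control. In D2-IL6 relative to D1-IL6 13.0% rose and 20.2% fell. Of 16 genes for the import of carrier proteins, 13 fell and 2 rose in D2-Control relative to D1-Control, with a median of -2.02, and 13 fell and 0 rose in D2-IL6 relative to D1-IL6. They include Tomm40, the pore of the outer membrane translocase (-3.67, bound -2.49, in D2-Control near background), Timm8a1, an intermembrane space chaperone (-3.23), and Timm22, the channel that inserts carriers (-2.42, bound -1.09, in D2-Control near background). Of the 2 that passed as higher in control cultures, Timm10, a small chaperone of the same path, rose by 0.77, and Timm9 was near background in both groups. Of 16 other channels and carriers, 3 rose and 7 fell in D2-Control. Sfxn1, a serine transporter, fell by 3.42, while its relatives Sfxn4 and Sfxn3 rose by 3.2 and 2.47 in D2-Control. In D2-IL6 relative to D1-IL6 these relatives rose by 3.3 and 2.01. The porin Vdac2 fell by 2.48 in D2-Control, and the iron carriers Slc25a37 and Slc25a28 had log2 fold changes of 0.46 and -2.61. Of 8 one-carbon enzymes of serine and folate, 0 rose and 4 fell in both media. In D2-Control relative to D1-Control they include the cytosolic Mthfd1 (-3.62) and the mitochondrial Mthfd1l (-1.61) and Shmt2 (-0.45).

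Between IL-6 and control cultures 2 members passed at D2 and 0 at D1, and no member passed as a difference between the time points. No member passed between D1-IL6 and D1-Control, where 0.0511% of named probe sets passed (0.0460% higher and 0.00511% lower), and 2 members and 554 named probe sets had an unadjusted p under 0.05 in limma. Between D2-IL6 and D2-Control 2 members rose and 0 fell, where 3.31% of named probe sets passed (2.92% higher and 0.393% lower). With 2 of 43 members, their share was near that of the array. Slc25a4 had 10.64 and 10.69 in D2-IL6, against 8.28 and 8.99 in D2-Control (2.03 ± 0.27, adjusted p = 0.00128, 4.08-fold). Slc25a1 had 11.84 and 11.79 in D2-IL6, against 10.78 and 10.50 in D2-Control (1.18 ± 0.20, adjusted p = 0.00709, 0.0921 in the fit of all 20 arrays). The pairs did not overlap in either gene. Slc25a39 had 15.75 and 15.81 in D2-IL6, against 15.95 and 15.80 in D2-Control, and the log2 differences of Slc25a3 (0.03), Slc25a5 (0.33), Slc25a12 (0.29), Slc25a20 (-0.32) and Slc25a40 (-0.69) did not pass. Slc25a42 had 6.66 and 7.47 in D2-IL6, against 8.07 and 8.75 in D2-Control (-1.35 ± 0.37, adjusted p = 0.0982). The IL-6 effect at D2 minus that at D1 was 1.82 ± 0.38 for Slc25a4 (adjusted p = 0.0529) and 0.93 ± 0.28 for Slc25a1 (adjusted p = 0.271), so that 0 members passed as a difference between the time points (4 had an unadjusted p under 0.05 in limma), where 1.19% of named probe sets did (1.17% higher and 0.0153% lower). Beside these changes, the monocyte and macrophage mean was 11.30 to 11.36 in D2-IL6, against 7.40 to 7.51 in D2-Control, and the neutrophil mean was 7.79 to 8.01, against 5.78 to 5.79. The granulocyte progenitor mean was also higher, at 8.64 to 8.87, against 7.10 to 7.22. Lower were the erythroid mean (14.83 to 14.85, against 15.00 to 15.06) and the megakaryocyte and platelet mean (8.70 to 8.76, against 9.07 to 9.40). The eosinophil mean and the mast cell and basophil mean were lower too. The part of cell makeup in the Slc25a4 and Slc25a1 differences was not tested.

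In vivo, members of DWT mice passed between stage IV and the earlier stages. In DWT-II+III against DWT-I 0 members passed, where 0.245% of named probe sets did (0.0255% higher and 0.220% lower), and 4 members and 1457 named probe sets had an unadjusted p under 0.05 in limma. In DWT-IV against DWT-II+III 2 members rose and 2 fell, where 5.16% of named probe sets passed (1.59% higher and 3.57% lower). Over the whole span, a comparison added after the values were seen, 3 members rose and 4 fell in DWT-IV relative to DWT-I, where 18.6% of named probe sets passed (8.17% higher and 10.5% lower). The members' shares were thus near those of the array. The 43 members' median was -0.144 over this span, against 0.167 over all named probe sets.

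The 3 members that rose in DWT-IV relative to DWT-I were Slc25a42, Slc25a21 and Slc25a51, too few to be read as a class of carriers. Slc25a42 had 6.27 and 5.69 in DWT-I, 7.75 and 7.21 in DWT-II+III and 10.85 and 10.48 in DWT-IV. Its log2 fold change was 4.69 ± 0.48 in DWT-IV against DWT-I (adjusted p = 0.0004, bound 3.04) and 3.19 ± 0.48 against DWT-II+III (adjusted p = 0.012). Among the DWT stages Slc25a42 was above background in both arrays at stage IV only. Slc25a21, which carries 2-oxoadipate and related acids, had 10.21 and 10.26 in DWT-I, 12.41 and 11.80 in DWT-II+III and 13.98 and 14.07 in DWT-IV. It rose by 3.79 ± 0.40 in DWT-IV against DWT-I (adjusted p = 0.000453) and by 1.92 ± 0.40 against DWT-II+III (adjusted p = 0.0274). Slc25a51 had 14.65 and 14.90 in DWT-I, 16.36 and 16.13 in DWT-II+III and 16.74 and 16.52 in DWT-IV (1.85 ± 0.37 in DWT-IV against DWT-I, adjusted p = 0.00686). Slc25a39 had 12.40 and 12.99 in DWT-I, 14.46 and 14.24 in DWT-II+III and 15.34 and 14.72 in DWT-IV, a difference of 2.33 ± 0.79 between DWT-IV and DWT-I that did not pass (adjusted p = 0.0654).

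Slc25a4, Slc25a1, Slc25a45 and Slc25a20 fell over the same span. Slc25a4 had 13.13 and 12.41 in DWT-I, 12.21 and 12.96 in DWT-II+III and 10.82 and 9.80 in DWT-IV (-2.47 ± 0.51 in DWT-IV against DWT-I, adjusted p = 0.00759, and -2.28 against DWT-II+III, adjusted p = 0.0315). Slc25a1 had 12.69 and 12.49 in DWT-I, 12.74 and 12.93 in DWT-II+III and 10.31 and 10.51 in DWT-IV (-2.19 ± 0.39 in DWT-IV against DWT-I, adjusted p = 0.00412, and -2.43 against DWT-II+III, adjusted p = 0.0133). Both were lower at stage IV than in any array of the earlier DWT stages. Slc25a45 had 9.90 and 9.42 in DWT-I, 8.52 and 8.52 in DWT-II+III and 7.02 and 7.49 in DWT-IV (-2.41 ± 0.47, adjusted p = 0.00634). Slc25a20 had 9.81 and 10.03 in DWT-I, 8.70 and 8.94 in DWT-II+III and 6.98 and 8.09 in DWT-IV (-2.39 ± 0.69, adjusted p = 0.0359, 0.0919 under quantile normalization). Slc25a5 and Slc25a3 differed by -1.53 (adjusted p = 0.0798) and -1.10 (adjusted p = 0.122) between DWT-IV and DWT-I and did not pass.

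Beside these changes, all 11 neutrophil genes passed as lower in DWT-IV than in DWT-I (median log2 fold change -7.48), as did 10 of 11 monocyte and macrophage genes, 5 of 7 granulocyte progenitor genes and 4 of 6 eosinophil genes, while 5 of 7 erythroid genes passed as higher. Over all named probe sets 10.5% were lower and 8.17% higher. The monocyte and macrophage mean was 9.16 to 9.57 in DWT-IV, against 12.78 to 12.95 in DWT-I, and the eosinophil mean 7.98 to 8.71, against 12.71 to 12.77. The part of these cells in the stage changes was not tested.

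Many of these in vivo calls ended when 1 array was left out. Without DWT-IV replicate 1 none of the 4 calls in DWT-IV against DWT-II+III passed (adjusted p of 0.108 for Slc25a42, 0.16 for Slc25a21, 0.116 for Slc25a4 and 0.12 for Slc25a1), nor without DWT-II+III replicate 2 (0.17, 0.268, 0.293 and 0.175). Without DWT-II+III replicate 1, Slc25a4 (0.066) and Slc25a21 (0.0597) were lost, and without DWT-IV replicate 2 likewise (0.156 and 0.101). Over the whole span the calls lost without DWT-I replicate 1 were Slc25a4 (0.0856), Slc25a20 (0.137), Slc25a45 (0.0656) and Slc25a51 (0.0678). Without DWT-IV replicate 1 they were Slc25a20 (0.234), Slc25a45 (0.0637) and Slc25a51 (0.068). Without DWT-I replicate 2 the call of Slc25a20 was lost (0.167), and without DWT-IV replicate 2 those of Slc25a20 (0.0509) and Slc25a4 (0.0616). The direction held in each case. Leaving out DKO-I replicate 2, which stood apart, gave more members in DWT-IV against DWT-II+III and in DWT-IV against DWT-I.

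**Figure D3:**
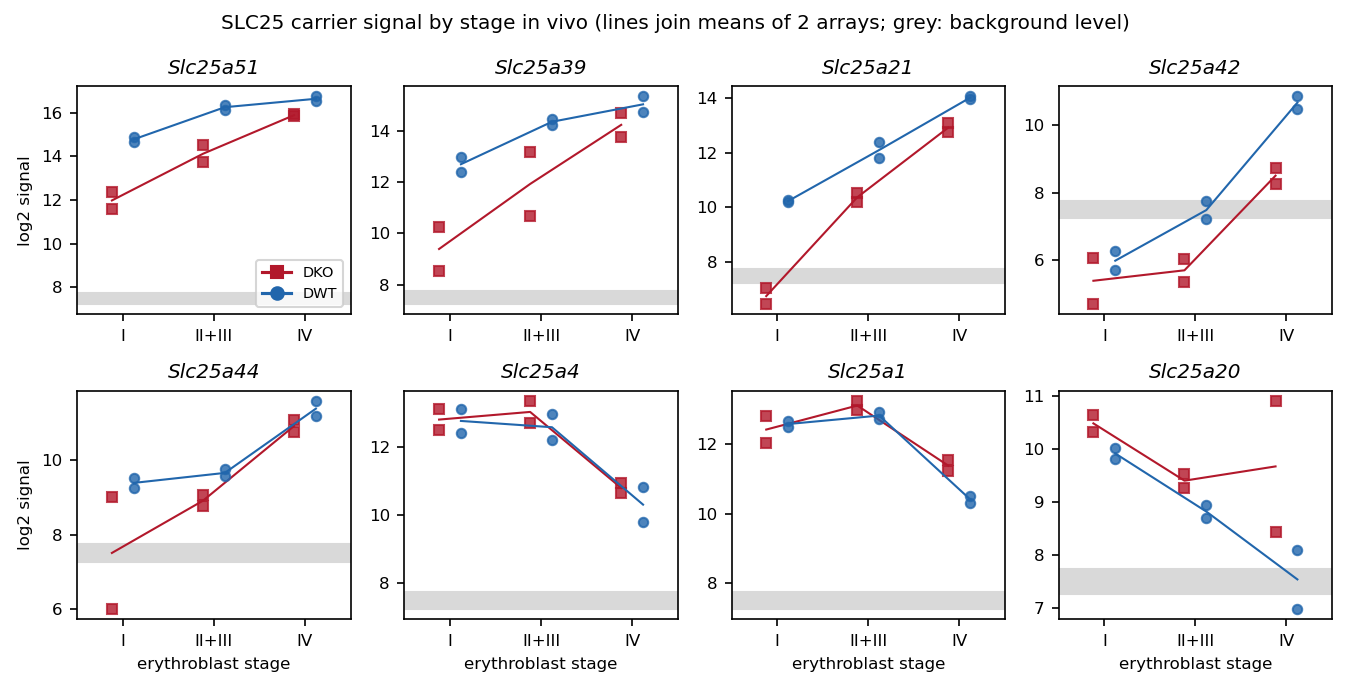
Log2 signal of 8 members over stages I, II+III and IV in DKO (red squares) and DWT (blue circles) mice, with lines through the means of 2 arrays and the background level of 7.25 to 7.74 in grey. Slc25a51, Slc25a39, Slc25a21 and Slc25a42 lie higher at stage IV and Slc25a4 and Slc25a1 lower, and DKO points of Slc25a51 and Slc25a21 lie below the DWT points at each stage.

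In the DKO stage series 5 of the 7 members called in DWT between stages IV and I were called too, namely Slc25a21, Slc25a42, Slc25a51, Slc25a4 and Slc25a45. That is 62.5% of the DKO list and 71.4% of the DWT list, where over all named probe sets 1939 passed in both, or 64.9% and 53.2%. In DKO-II+III against DKO-I 2 members rose and 0 fell, where 0.327% of named probe sets passed (0.240% higher and 0.0869% lower). In DKO-IV against DKO-II+III 3 rose and 3 fell, where 7.77% of named probe sets passed (4.11% higher and 3.66% lower). In DKO-IV against DKO-I, also added after the values were seen, 5 rose and 3 fell, where 15.3% of named probe sets passed (7.72% higher and 7.55% lower). Slc25a21 had 6.47 and 7.04 in DKO-I, 10.21 and 10.54 in DKO-II+III and 13.08 and 12.78 in DKO-IV. It rose by 6.17 ± 0.40 in DKO-IV against DKO-I (adjusted p = 2.43e-05, at least 5.24 because DKO-I was near background). Slc25a51 had 12.38 and 11.58 in DKO-I, 13.73 and 14.50 in DKO-II+III and 15.82 and 15.94 in DKO-IV (3.90 ± 0.37 in DKO-IV against DKO-I, adjusted p = 0.000133). No pair of stages overlapped for either gene. Slc25a39 had 10.25 and 8.53 in DKO-I, 10.66 and 13.19 in DKO-II+III and 13.77 and 14.69 in DKO-IV (4.84 ± 0.79 in DKO-IV against DKO-I, adjusted p = 0.00239). Slc25a42 had 4.70 and 6.07 in DKO-I, 5.35 and 6.04 in DKO-II+III and 8.74 and 8.26 in DKO-IV (3.12 ± 0.48 in DKO-IV against DKO-I, adjusted p = 0.0017, bound 0.82). Slc25a44 had 9.01 and 6.00 in DKO-I, 8.76 and 9.07 in DKO-II+III and 11.09 and 10.77 in DKO-IV. Its log2 fold change in DKO-IV against DKO-I was 3.42 ± 0.75 (adjusted p = 0.0116) and 1.92 without DKO-I replicate 2. Of the falls, Slc25a4 had 13.12 and 12.50 in DKO-I, 13.35 and 12.72 in DKO-II+III and 10.66 and 10.94 in DKO-IV (-2.01 ± 0.51 in DKO-IV against DKO-I, adjusted p = 0.0217). Slc25a45 fell by 2.26 (bound -1.95) and Slc25a35 by 1.14 (bound -0.34) in DKO-IV against DKO-I. Slc25a1 fell by 1.75 in DKO-IV against DKO-II+III (adjusted p = 0.0244).

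Beside the DKO stage changes, 9 of 11 neutrophil genes and 9 of 11 monocyte and macrophage genes passed as lower in DKO-IV than in DKO-I, and 7 of 7 erythroid genes as higher. Over all named probe sets 7.55% were lower and 7.72% higher. The monocyte and macrophage mean was 10.27 to 10.63 in DKO-IV, against 12.84 to 13.61 in DKO-I, and the eosinophil mean 6.79 to 8.38, against 7.17 to 10.19. Their part was not tested either.

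Several DKO calls also ended when an array was left out. In DKO-II+III against DKO-I, Slc25a51 (2.14, adjusted p = 0.0466) was lost without DKO-II+III replicate 2 (0.362), with arrays centred on their medians (0.0617) and with the replicate block by DWT mouse (0.102), and Slc25a21 (3.62) without DKO-II+III replicate 2 (0.0713). In DKO-IV against DKO-II+III, no member passed without DKO-IV replicate 1 (adjusted p of 0.0539 to 0.186) or without DKO-IV replicate 2 (0.0536 to 0.191). Without DKO-II+III replicate 1, Slc25a1 (0.117), Slc25a4 (0.135), Slc25a13 (0.0768), Slc25a42 (0.0578) and Slc25a51 (0.113) were called no more. Without DKO-II+III replicate 2 this held for Slc25a1 (0.0775), Slc25a4 (0.0593) and Slc25a13 (0.238), the last near background in both groups and also lost under the block (0.0622). In DKO-IV against DKO-I, Slc25a4, Slc25a35, Slc25a44 and Slc25a45 were lost without DKO-IV replicate 1 (0.128, 0.183, 0.0765 and 0.0749) and the first 3 of these without DKO-IV replicate 2 (0.0903, 0.146 and 0.059). Slc25a35 was also lost without DKO-I replicate 2 (-0.75, adjusted p = 0.146) and under the block (0.0601). Without DKO-I replicate 1, more members passed in DKO-II+III against DKO-I and in DKO-IV against DKO-I, when the lone DKO-I array was the one that stood apart.

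DKO and DWT cells differed in the NAD+ carrier and the oxodicarboxylate carrier at the earliest stage. In DKO-I against DWT-I 0 members were higher and 2 lower, where 0.445% of named probe sets passed (0.0562% higher and 0.388% lower). Slc25a21 had 6.47 and 7.04 in DKO-I, against 10.21 and 10.26 in DWT-I (-3.48 ± 0.40, adjusted p = 0.00626, bound -2.55). Slc25a51 had 12.38 and 11.58 in DKO-I, against 14.65 and 14.90 in DWT-I (-2.80 ± 0.37, adjusted p = 0.00982, 6.97-fold lower). Neither gene's pairs overlapped. Slc25a39 had 10.25 and 8.53 in DKO-I, against 12.40 and 12.99 in DWT-I, but did not pass (-3.30 ± 0.79, adjusted p = 0.131). Slc25a12 had 11.75 and 6.97 in DKO-I, against 11.81 and 11.82 in DWT-I, so that 1 array set its mean difference of -2.45. Slc25a4 (0.04), Slc25a3 (-1.10), Slc25a5 (-1.19), Slc25a20 (0.57) and Slc25a40 (-0.49) did not pass.

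At stage II+III, where 0.618% of named probe sets passed (0.220% higher and 0.399% lower), 0 members were higher and 1 was lower. Slc25a51 had 13.73 and 14.50 in DKO-II+III, against 16.36 and 16.13 in DWT-II+III (-2.13 ± 0.37, adjusted p = 0.0331). Slc25a39 had 10.66 and 13.19 in DKO-II+III, against 14.46 and 14.24 in DWT-II+III (-2.43 ± 0.79, adjusted p = 0.287). At stage IV 0 members passed, where 0.0460% of named probe sets did (0.0204% higher and 0.0255% lower), and 4 members and 1588 named probe sets had an unadjusted p under 0.05 in limma. Slc25a51 had 15.82 and 15.94 in DKO-IV, against 16.74 and 16.52 in DWT-IV. Slc25a42 had 8.74 and 8.26 in DKO-IV, against 10.85 and 10.48 in DWT-IV (-2.16 ± 0.48, adjusted p = 0.214), and Slc25a20 had 8.44 and 10.91 in DKO-IV, against 6.98 and 8.09 in DWT-IV (2.14 ± 0.69, adjusted p = 0.438). None of these 3 genes passed at stage IV. The genotype effect on Slc25a51 at stage II+III minus that at stage I was 0.67 ± 0.52 (adjusted p = 0.799), and that at stage IV minus II+III 1.38 ± 0.52 (adjusted p = 1), so no change of the effect with stage passed, among members or among all named probe sets (0% for either difference in limma). At an unadjusted p under 0.05 there were 2 members and 942 named probe sets for the first difference, and 1 member and 662 named probe sets for the second. For Slc25a21 the first of these was 1.75 ± 0.57 (adjusted p = 0.799).

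The genotype calls ended in several alternatives. Slc25a21 and Slc25a51 at stage I were lost without DWT-I replicate 1 (adjusted p of 0.108 and 0.134) or DWT-I replicate 2 (0.108 and 0.146), and stayed without DKO-I replicate 2 (-3.77 with adjusted p = 0.00249, and -2.40 with adjusted p = 0.00958). The block marked male arrays, so between genotypes it adjusted for sex and paired no mice. With it, Slc25a51 at stage I missed the threshold (-2.77, adjusted p = 0.0528). Without DKO-I replicate 1, more members passed at stage I, when the lone DKO-I array was the one that stood apart. Slc25a51 at stage II+III was lost under the block (0.159), after centring (0.0511) and without DKO-II+III replicate 1 (0.115), DKO-II+III replicate 2 (0.0556), DWT-II+III replicate 1 (0.372) or DWT-II+III replicate 2 (0.132), while without DKO-I replicate 2 its adjusted p was 0.00244 and 3 members passed. The lower Slc25a51 and Slc25a21 stood beside a lower erythroid mean in DKO-I (9.45 to 10.16, against 12.75 to 12.91 in DWT-I) and, for Slc25a51, in DKO-II+III (12.11 to 13.10, against 13.93 to 14.51 in DWT-II+III). In DKO-I the erythroid gene Slc4a1, the red cell anion exchanger, had 13.20 and 12.23, against 16.47 and 16.42 in DWT-I. Other marker means of DKO-I and DWT-I did not overlap either. The stem and progenitor mean was 5.97 to 7.63 in DKO-I, against 8.65 to 8.68 in DWT-I, and the eosinophil mean 7.17 to 10.19, against 12.71 to 12.77. The mast cell and basophil mean was 7.82 to 9.03, against 10.21 to 10.77, while the T and NK cell mean was higher, at 9.56 to 9.85, against 7.97 to 8.45. The part of cell makeup in these differences was not tested.

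**Figure D4:**
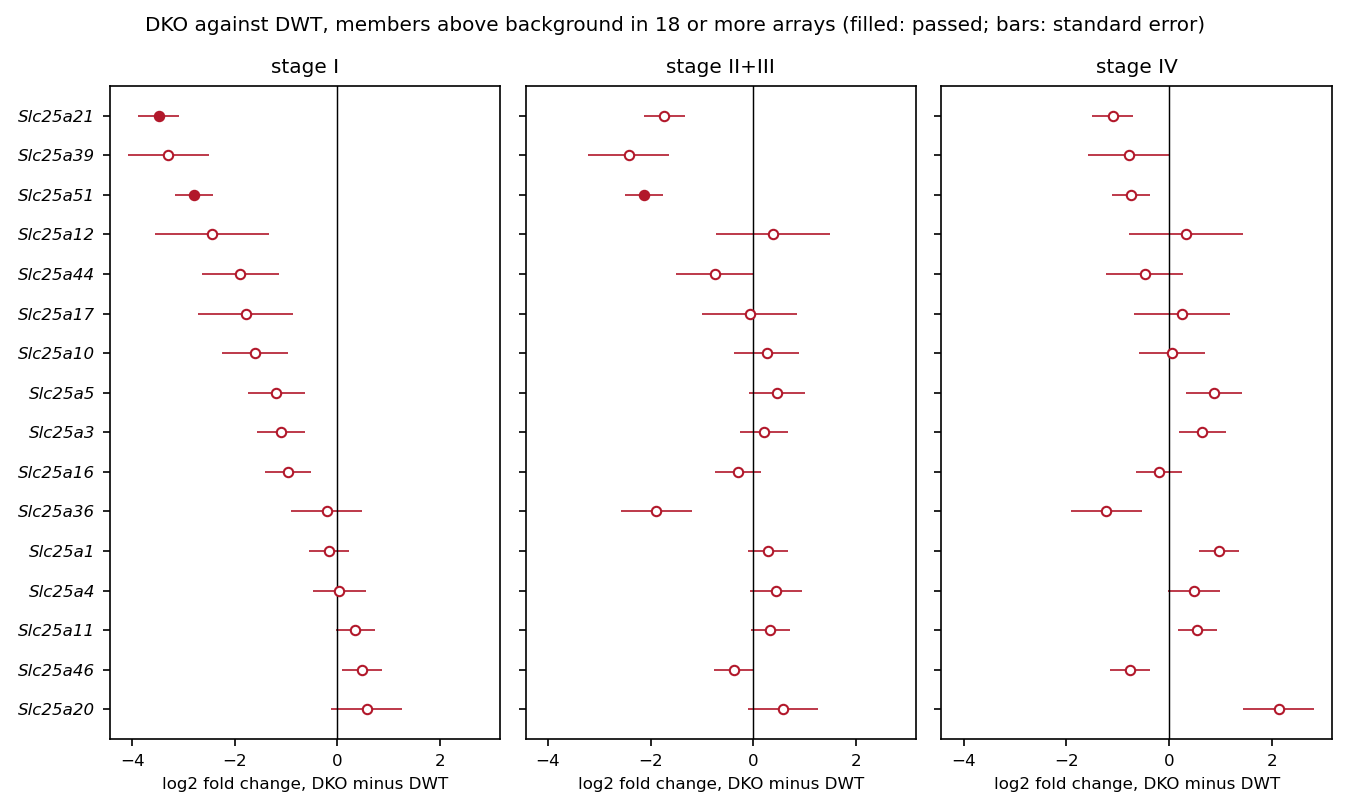
Log2 fold change, DKO minus DWT, with standard errors at stages I, II+III and IV for the 16 members above background in 18 or more of the 20 arrays, filled where the adjusted p was under 0.05. Slc25a21 and Slc25a51 are filled at stage I, Slc25a51 at stage II+III, and no member at stage IV.

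The cultured span (D2-Control against D1-Control) and the in vivo span (DWT-IV against DWT-I) use separate arrays and can be set side by side. Of the 19 members that passed in culture and the 7 that passed in vivo, 5 were common to both, which is 26.3% of the cultured list and 71.4% of the in vivo list. Over all named probe sets 2320 were common, or 27.4% and 63.6% of the lists, so the members' shares were near those of the array. In 4 of the 5 the direction was the same: Slc25a51 rose, and Slc25a4, Slc25a1 and Slc25a45 fell. Slc25a20 went opposite ways, with a log2 fold change of 1.95 in culture and -2.39 in vivo. Its in vivo call ended under quantile normalization and when any 1 of the DWT-I or DWT-IV arrays was left out. The in vivo calls of Slc25a4, Slc25a45 and Slc25a51 also ended without some of these arrays. Slc25a36, with 24.9-fold in culture, had 9.12 and 8.10 in DWT-IV, against 9.52 and 8.56 in DWT-I, and did not pass. Slc25a42 and Slc25a21 passed in vivo and not in culture, where Slc25a21 had 12.76 and 12.62 in D2-Control, against 12.94 and 12.97 in D1-Control. A test of the culture span against the in vivo span was not made.

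**Figure D5:**
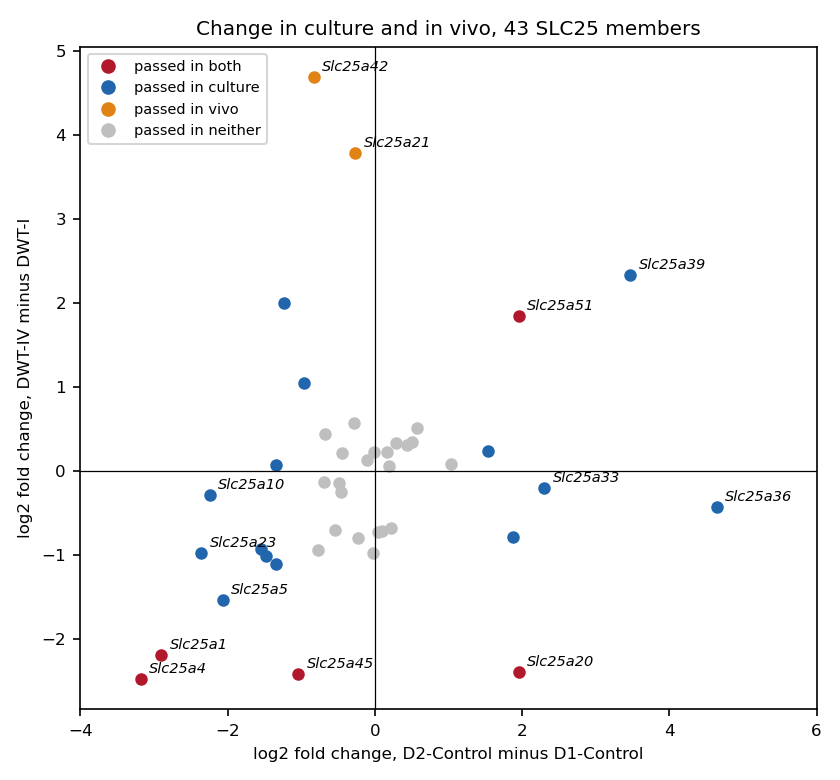
Log2 fold change of the 43 members in D2-Control minus D1-Control (horizontal) and in DWT-IV minus DWT-I (vertical), coloured by where the adjusted p was under 0.05. Slc25a4, Slc25a1, Slc25a45 and Slc25a51 passed in both with the same sign, and Slc25a20 lies at 1.95 in culture and -2.39 in vivo. The in vivo call of Slc25a20 ended when any 1 of the DWT-I or DWT-IV arrays was left out.

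The lists around the carriers also held genes that passed between stages. Over all named probe sets, 8.17% rose and 10.5% fell in DWT-IV relative to DWT-I. In DKO-IV relative to DKO-I 7.72% rose and 7.55% fell. Of the 16 import genes, 1 rose and 6 fell in DWT-IV relative to DWT-I (median -1.14), among them Timm10b (-2.61), Timm8a1 (-2.36) and Tomm6 (-1.93), while 0 rose and 2 fell in DKO-IV relative to DKO-I. Of the 12 glutathione genes, 4 rose and 2 fell in DWT-IV relative to DWT-I. Gclc, the catalytic subunit of the first enzyme of glutathione synthesis, rose by 3.78, and Slc7a11 had a log2 fold change of -5.51 (bound -4.75, in DWT-IV near background), whereas it rose by 3.19 in D2-Control relative to D1-Control. Of the other channels and carriers, the iron carrier Slc25a37 rose by 2.37 in DWT-IV relative to DWT-I and by 4.83 in DKO-IV relative to DKO-I. The glycine carrier Slc25a38 rose by 2.02 and 1.77 in the same comparisons. Others of that list fell: Sfxn5 had log2 fold changes of -2.88 and -3.65 (bound -2.92, in DKO-IV near background), and Mtch1 -1.47 and -1.65. Sfxn3 had -1.98 in DWT-IV relative to DWT-I. The iron carrier Slc25a28 had -1.67 in DKO-IV relative to DKO-I, opposite to Slc25a37. Of the one-carbon enzymes, Mthfd2 rose by 2.13 in DWT-IV relative to DWT-I and by 4.52 in DKO-IV relative to DKO-I. Shmt1 had log2 fold changes of -1.85 (bound -1.76, in DWT-IV near background) and -1.83 in these comparisons. Shmt2 passed in DKO only (3.84), with 12.88 and 9.32 in DKO-I. In DKO-I against DWT-I no gene of the 4 lists passed, where 0.445% of named probe sets did.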

How the data were processed

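Clariom S arrays of 700 pg total RNA were made by the authors. The deposited values are log2 signals made with Affymetrix Expression Console and RMA (robust multi-array average), per the submitters' processing notes, with versions and joint normalization of the 20 arrays not given in the sources used here. Probe sets were named from the platform annotation. Here limma 3.58.1 in R 4.3.3 (lmFit, eBayes with trend) compared group means in 1 fit of the 8 cultured and 1 of the 12 in vivo arrays, with Benjamini-Hochberg adjustment over 19572 named probe sets and a threshold of 0.05. SE is that of the fit. A bound sets a group with both arrays near background to that level. Replicates were numbered in accession order, and the number of arrays limits the precision. The members and gene lists were chosen with earlier results of these data known, and the I to IV comparisons after values were seen. Genes named passed without overlap (up to 10 a comparison by size), had the 5 highest or 3 lowest levels, or were 9 listed carriers; up to 6 genes a list were eligible. The block paired DWT arrays of 1 mouse, known by sex at each stage, and deviations of these DWT arrays correlated at 0.021 to 0.124. Its term marked male arrays, so between genotypes it acted as an adjustment for sex. Promoters are RefSeq sequences (GRCm38.p6). Alternatives were quantile normalization, centring, a filter on dim probe sets, a fit of all 20 arrays, the block, and leaving out each array. The fits were tested on simulated data.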

Additional observations from a re-analysis of the deposited data

How the results depend on the processing

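Of 74 pairs of a member and a comparison that passed, 34 passed under every alternative run for them and none changed direction. Counts of members that passed changed as follows. In 1 fit of all 20 arrays, 1 passed in D2-IL6 against D2-Control, 15 in D2-IL6 against D1-IL6, 2 in DKO-II+III against DWT-II+III, 2 in DWT-II+III against DWT-I and 13 in DWT-IV against DWT-I. Quantile normalization ended 10 of the 74 calls, among them those of Slc25a10 (-1.05, adjusted p = 0.0648) and Slc25a31 (0.50, 0.155) in D2-IL6 against D1-IL6 and of Slc25a13 (-1.29, 0.0619) in DKO-IV against DKO-II+III, and left 16 members in D2-Control against D1-Control and 19 in D2-IL6 against D1-IL6. With arrays centred on their medians, 0 passed in DKO-II+III against DWT-II+III, 1 in DKO-II+III against DKO-I and 1, Slc25a4, in the IL-6 effect at D2 minus D1, where 1 also passed after the filter on dim probe sets. With the replicate block, 1 passed in DKO-I against DWT-I, 0 in DKO-II+III against DWT-II+III and 1 in DKO-II+III against DKO-I, and the block ended no other call than those given with the results. DKO arrays of the same number, a number given in accession order, correlated in their deviations at 0.198 to 0.375. No label ties them to a mouse, so they were not blocked. Leaving out 1 array gave 0 to 14 members in DKO-I against DWT-I, 0 to 3 in DKO-II+III against DWT-II+III, 0 to 1 in DKO-IV against DWT-IV, 0 to 2 in DWT-II+III against DWT-I, 0 to 9 in DWT-IV against DWT-II+III, 0 to 10 in DKO-II+III against DKO-I, 0 to 9 in DKO-IV against DKO-II+III, 3 to 12 in DWT-IV against DWT-I, 4 to 17 in DKO-IV against DKO-I, 0 to 2 in the IL-6 effect at D2 minus D1 and 0 to 6 in the DKO effect at II+III minus I. The highest of these came without DKO-I replicate 1 or 2, or, for IL-6, without D2-Control replicate 2. Apart from the smaller number of arrays, the cause was not tested. The share of all named probe sets that passed is not given for the alternatives, here or above. Counts of members under them are thus not read as results about the members. Quantile normalization moved the median of all named probe sets by -0.148 in D2-Control against D1-Control, -0.103 in D2-IL6 against D1-IL6, -0.112 in DKO-I against DWT-I and -0.106 in DWT-IV against DWT-I. Centring moved it by -0.127 in D2-Control against D1-Control and by 0.111 in the DKO effect at II+III minus I. Signals near background limit the 15 members that no array showed above it.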
